A study of Mus musculus with 5 samples.

Results

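This account covers 10 genes of bone morphogenetic protein (BMP) signalling in whole mouse embryos: the ligand genes Bmp2, Bmp4 and Bmp7, the inhibitor genes Bambi, Smad6 and Smad7, and the target genes Id1, Id2, Id3 and Msx2. The members were chosen by name, as probe sets annotated to 1 of these symbols only, which gave 14 probe sets of 20380 with 1 symbol and 10 genes of 12393. Bmp7 and Id2 had 3 probe sets each and the other genes 1 each. The embryos were of strain C57BL6J at gestation day 9.5, and their RNA was hybridised to Affymetrix Mouse Genome 430A arrays, 3 labelled Folr1+/+ and 2 labelled Folr1-/-. Folr1 encodes a folate receptor of the cell surface, and the question is how transcript levels change in its absence. Both parents of the Folr1-/- embryos were Folr1+/- and their dams were fed extra folate from before mating, per the labels' protocols. What the dams of Folr1+/+ embryos ate is not given separately, so an effect of diet and one of genotype cannot be told apart. The embryos were cleared of decidua, chorion and amnion, while the yolk sac is not mentioned. The labels do not state how many embryos went into a sample, so p-values measure the spread between these 5 arrays.

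BMPs are secreted ligands of the transforming growth factor beta family that bind paired serine/threonine kinase receptors, which phosphorylate Smad1, Smad5 and Smad9. With Smad4 these enter the nucleus and switch on targets such as the Id genes and Msx2, and also Smad6, Smad7 and Bambi, whose products dampen the signal. In the embryo at midgestation BMPs take part in dorsal neural tube, heart, limb and extraembryonic development, and visceral endoderm is a known source of Bmp2.

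Several facts of the arrays bear on all values. Signals are MAS5 signals, a linear brightness per probe set in arbitrary units, and they are not comparable between probe sets. The Folr1 probe set read 40.2 to 57.0 in Folr1+/+ and 41.8 to 50.2 in Folr1-/- (log2 fold change -0.07, limma adjusted p = 0.858). The deleted part of the gene is not known here, so this value is no check of the labels. Xist, an RNA of the inactive X chromosome, was at 419 and 770 in the Folr1-/- replicates against 25.0 to 35.7 in the others. The Y-linked Eif2s3y was at 104 and 3.13 against 300.3 to 372, so that Folr1-/- replicate 1 carried both signals. Every Folr1+/+ array had the Y-linked signal with low Xist, and Folr1-/- replicate 2 had the reverse. An effect of sex and one of genotype therefore cannot be told apart either, for any value below. Of 7436 genes tested across the 2 groups, 609 rose and 505 fell in Folr1-/- at a limma adjusted p under 0.05. With each array centred on its median these counts were 733 and 361.

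Of the 10 member genes 4 rose in the arrays labelled Folr1-/- (Bmp4, Bmp2, Bambi and Smad6), 0 fell and 6 did not pass (Smad7, Msx2, Bmp7, Id2, Id1 and Id3). Among all genes tested, 8.19% were higher and 6.79% lower by the same rule. The median log2 fold change was 0.64 over the 10 members and -0.02 over all genes tested. The groups did not overlap in 8 members, all of them higher in Folr1-/-, where 22.5% of all genes tested were higher without overlap. Id1 and Id3 were the members whose groups overlapped. Fold changes are Folr1-/- minus Folr1+/+ on the scale of log2(signal + 16), given with the standard error (SE), and they understate the change of dim genes. The tissue is whole embryos, so more cells of a type and more RNA per cell cannot be told apart.

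**Figure D1:**
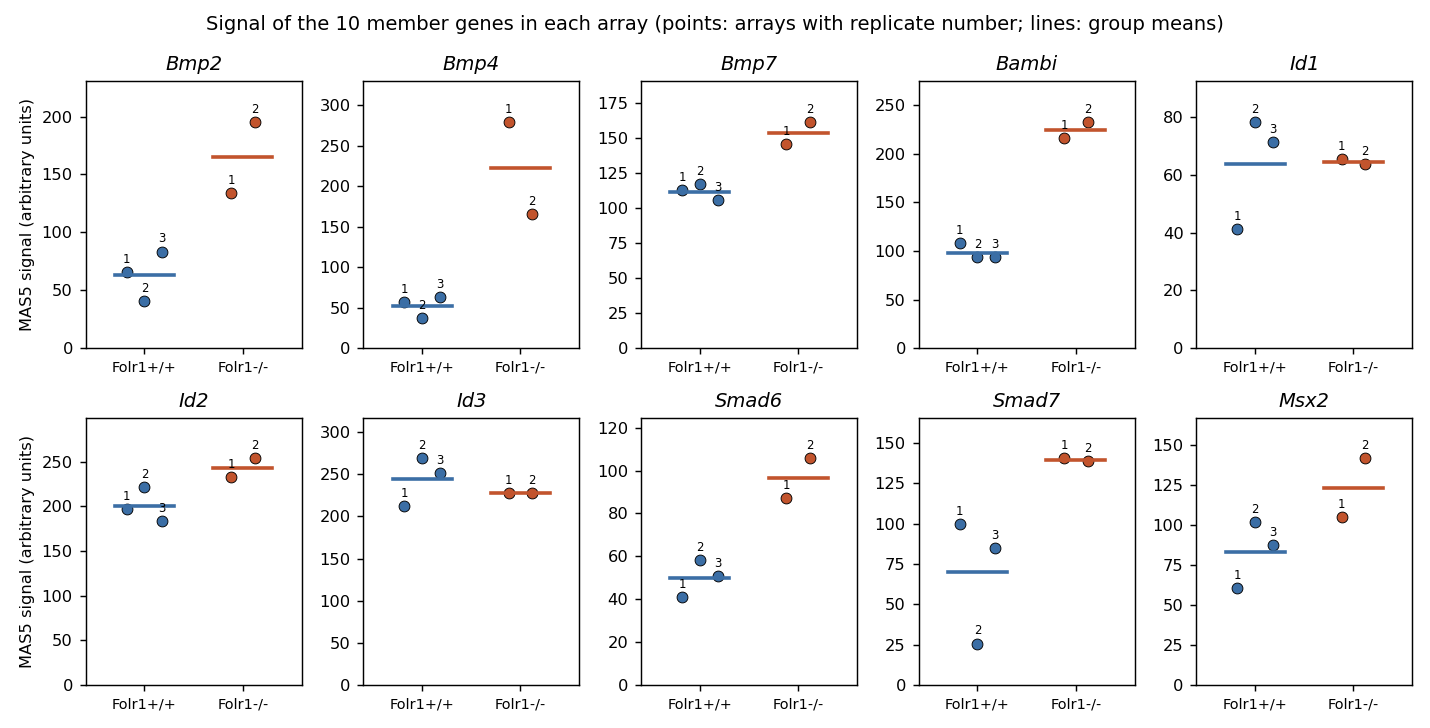
MAS5 signal (linear axis from 0, arbitrary units) of the probe set that represents each of the 10 member genes, with 1 point per array, the replicate number beside it and a line at the group mean. Both Folr1-/- points lie above all Folr1+/+ points in 8 panels, while in the panels of Id1 and Id3 they lie within the Folr1+/+ range.

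Promoter sequences are shown for 2 members that rose, Bmp4 and Smad6, and for 2 that did not pass, Id2 and Id3, so that the inhibitor and ligand genes can be read beside the Id genes. They come from the RefSeq promoter windows of build GRCm38.p6, of which 5 were used for the members, and each runs from 250 bases before the start site to 10 after it, 5′ to 3′ on the gene's strand. Capitals mark matches on either strand to 5 motifs. GGCGCC and GTCT are known Smad motifs, as is the palindrome GTCTAGAC, while TATAAA and CCAAT are general promoter motifs. GTCTAGAC contains GTCT on both strands. The windows lie at chr14:46390660-46390919 (minus strand) for Bmp4, chr9:64022050-64022309 (minus strand) for Smad6, chr12:25096083-25096342 (minus strand) for Id2 and chr4:136143572-136143831 (plus strand) for Id3.
Bmp4: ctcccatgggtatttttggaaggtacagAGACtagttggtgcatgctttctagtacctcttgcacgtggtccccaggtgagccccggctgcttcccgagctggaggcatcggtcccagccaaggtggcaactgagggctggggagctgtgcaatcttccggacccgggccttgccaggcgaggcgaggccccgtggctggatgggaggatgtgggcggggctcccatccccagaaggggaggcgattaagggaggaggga
Smad6: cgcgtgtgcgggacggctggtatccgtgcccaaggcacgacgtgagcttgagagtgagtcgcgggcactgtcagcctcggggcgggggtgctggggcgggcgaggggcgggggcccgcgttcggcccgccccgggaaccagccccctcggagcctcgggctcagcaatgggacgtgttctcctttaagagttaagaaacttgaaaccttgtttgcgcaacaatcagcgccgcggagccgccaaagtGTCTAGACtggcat
Id2: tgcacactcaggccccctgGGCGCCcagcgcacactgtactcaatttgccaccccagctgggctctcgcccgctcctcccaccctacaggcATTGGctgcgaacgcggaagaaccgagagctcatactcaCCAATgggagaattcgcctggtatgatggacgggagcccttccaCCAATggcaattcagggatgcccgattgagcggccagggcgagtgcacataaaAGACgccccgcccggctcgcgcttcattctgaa
Id3: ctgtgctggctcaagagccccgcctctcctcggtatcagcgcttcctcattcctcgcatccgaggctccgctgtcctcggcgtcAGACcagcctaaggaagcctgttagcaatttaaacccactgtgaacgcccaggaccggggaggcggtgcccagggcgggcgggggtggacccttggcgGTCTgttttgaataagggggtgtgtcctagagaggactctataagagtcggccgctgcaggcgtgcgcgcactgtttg

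In the whole 300-base window, the palindrome GTCTAGAC was found in Smad6, where it starts 4 bases before the start site and runs across it. Of 32851 promoter windows of that length 0.213% hold it. The motif GGCGCC was found in Id2 and in none of the windows of Bmp4, Smad6, Id3 and Msx2, and 11.9% of all windows hold it. GTCT was found in all 5 windows, as in 88.0% of all windows. The Id2 window held CCAAT 3 times and those of Smad6 and Msx2 once each, against 37.4% of windows with any match, and TATAAA was found in none of the 5, against 13.6%. These matches describe letters, not binding.

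Among the ligands, Bmp4 had the largest change of the 10 members with all 5 arrays. Its signal was 56.7, 36.8 and 63.6 in Folr1+/+ replicates 1 to 3 and 279 and 165 in Folr1-/- replicates 1 and 2, and values of other members follow in the same order. Both Folr1-/- arrays were above every Folr1+/+ array, and the Folr1-/- arrays differed widely from each other. The mean rose from 52.4 ± 13.9 (SD, n = 3) to 222 ± 80.7 (SD, n = 2), a ratio of 4.25. On the log2 scale Bmp4 rose by 1.78 ± 0.25 (SE), with a 95% interval of 1.24 to 2.32 and a limma adjusted p of 0.00059. Without Folr1-/- replicate 1, the array with both Xist and Y-linked signal, it was 1.43 (limma adjusted p = 0.023), and without Folr1-/- replicate 2 it was 2.13 (0.0028). In the first case Bmp2 had the larger change, at 1.46.

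Bmp2, a close relative of Bmp4, was at 65.4, 40.7 and 83.5 in Folr1+/+ and at 134 and 196 in Folr1-/-. Here replicate 2 was the higher Folr1-/- array, the reverse of Bmp4. The group means were 63.2 ± 21.5 (SD, n = 3) and 165 ± 43.6 (SD, n = 2), and the log2 fold change was 1.21 ± 0.25 (SE; 95% interval 0.66 to 1.75, limma adjusted p = 0.0072). The limma adjusted p was 0.031 without Folr1-/- replicate 1. Without Folr1-/- replicate 2 it was 0.96 and no longer passed (limma adjusted p = 0.10).

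Bmp7, a ligand of another subgroup that also pairs with Bmp2 and Bmp4, did not pass. Its brightest probe set, 1435479_at, was at 113, 117 and 105 in Folr1+/+ and 146 and 162 in Folr1-/-, so the groups were apart by a small step. The log2 fold change was 0.41 ± 0.17 (SE; 95% interval 0.04 to 0.77, limma adjusted p = 0.13). The second probe set, 1418910_at, was at 25.4, 19.7 and 25.9 against 37.1 and 36.7, also higher without overlap. The third, 1432410_a_at, went the other way at 5.05, 7.17 and 3.59 against 0.961 and 0.726, all far under the pseudocount of 16 and at the 7.42th percentile of probe sets by mean log2 signal. In a fit of all 20380 probe sets with 1 symbol, the fold changes of these 3 probe sets were 0.41, 0.42 and -0.33, with limma adjusted p-values of 0.19, 0.33 and 0.24.

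**Figure D2:**
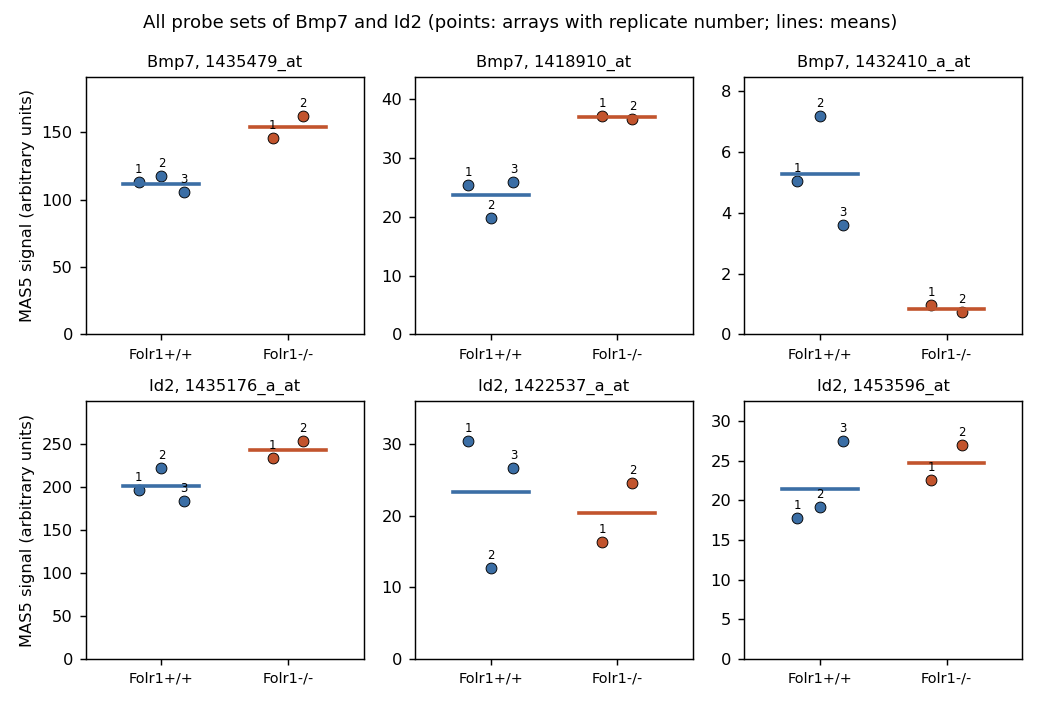
MAS5 signal (linear axis from 0, arbitrary units, a separate scale per panel) of the 3 probe sets of Bmp7 and the 3 of Id2, with 1 point per array, its replicate number and the group mean as a line. For Bmp7 the Folr1-/- arrays are above in the first and second panels and below 1 unit in the third, and for Id2 only the first panel shows groups without overlap.

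The inhibitors act at the membrane and inside the cell. Bambi encodes a receptor-like protein without a kinase domain that blocks signalling by type I receptors. Its signal was 108, 93.5 and 93.4 in Folr1+/+ and 216 and 233 in Folr1-/-. The arrays of each group lay close together, at 98.4 ± 8.58 (SD, n = 3) and 225 ± 11.9 (SD, n = 2). Bambi rose by 1.08 ± 0.17 (SE; 95% interval 0.71 to 1.44, limma adjusted p = 0.0013). Leaving out Folr1-/- replicate 1 gave 1.13 (limma adjusted p = 0.021), and leaving out Folr1-/- replicate 2 gave 1.02 (0.024).

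Smad6, an inhibitory Smad that acts mainly on BMP signals and whose promoter window is printed above, was at 41.0, 58.2 and 50.6 against 87.2 and 106. All 3 Folr1+/+ arrays were below both Folr1-/- arrays, at means of 49.9 ± 8.60 (SD, n = 3) and 96.4 ± 13.0 (SD, n = 2). It rose by 0.77 ± 0.20 (SE; 95% interval 0.34 to 1.21, limma adjusted p = 0.022). The call was lost without Folr1+/+ replicate 1 (0.67, limma adjusted p = 0.054), Folr1+/+ replicate 3 (0.78, 0.064), Folr1-/- replicate 1 (0.89, 0.095) or Folr1-/- replicate 2 (0.65, 0.17), and with no filter on dim genes (0.77, 0.071).

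Smad7, the inhibitory Smad of both the BMP and the transforming growth factor beta branches, was at 99.8, 25.6 and 85.0 in Folr1+/+ and at 141 and 139 in Folr1-/-. The Folr1-/- arrays nearly coincided, and Folr1+/+ replicate 2 was far below the other Folr1+/+ arrays. That array also had the highest Actb 3'/5' ratio, a measure that rises as RNA is shortened, at 39.5 against 21.1 to 30.5 on the others. A fit with the ratio as a covariate is given below, but the effect of the ratio itself on Smad7 was not tested. The log2 fold change was 0.99 ± 0.35 (SE; 95% interval 0.23 to 1.74) and did not pass (limma adjusted p = 0.077). Without Folr1+/+ replicate 2 it was 0.53 (limma adjusted p = 0.082). The gene passed without Folr1+/+ replicate 1 (1.26, limma adjusted p = 0.035) and with the Actb ratio as a covariate (0.81, 0.035).

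**Figure D3:**
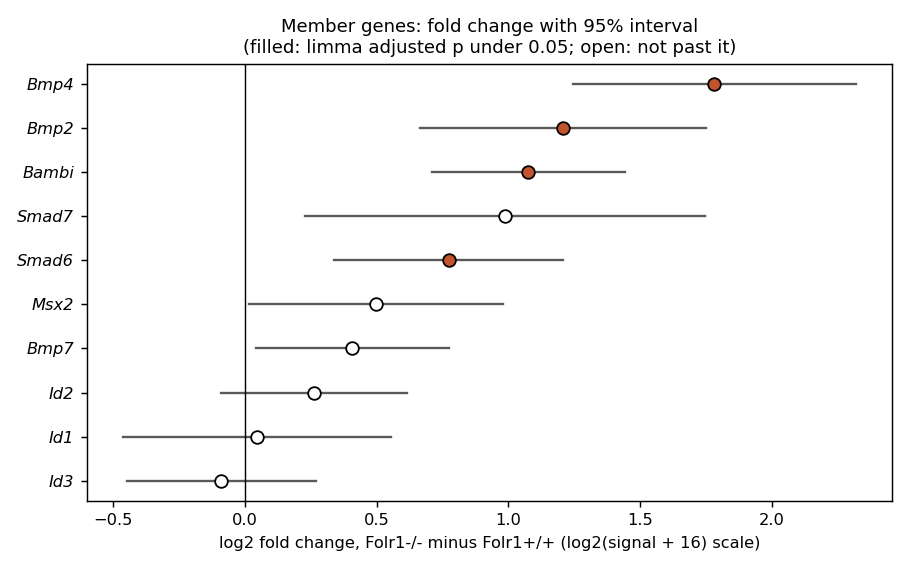
Log2 fold change (Folr1-/- minus Folr1+/+, log2(signal + 16) scale) of each member gene, as a point with its 95% interval and ordered by size. Filled points (Bmp4, Bmp2, Bambi and Smad6) passed a limma adjusted p of 0.05 and open points did not, and the intervals of Id2, Id1 and Id3 include 0.

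The Id genes and Msx2 did not pass. Of the inhibitor genes, which BMP signals also switch on, Bambi and Smad6 rose and Smad7 did not pass. Id proteins are helix-loop-helix factors without a DNA-binding region that hold E proteins off DNA, and their genes are direct BMP targets in many cells. Id1 was at 41.2, 78.4 and 71.5 in Folr1+/+ and at 65.4 and 63.6 in Folr1-/-. The Folr1-/- arrays lay inside the Folr1+/+ range, with a log2 fold change of 0.05 ± 0.23 (SE; 95% interval -0.46 to 0.55, limma adjusted p = 0.914). Without Folr1+/+ replicate 1, the lowest array, the sign turned (-0.18).

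Id3 was at 212, 269 and 251 against 228 and 227. The log2 fold change was -0.09 ± 0.16 (SE; 95% interval -0.45 to 0.27, limma adjusted p = 0.754). The Folr1-/- arrays were again inside the range of the Folr1+/+ arrays, and the interval leaves room for neither a doubling nor a halving.

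Id2 was measured by 3 probe sets. The brightest, 1435176_a_at, was at 197, 221 and 184 against 233 and 254, higher without overlap but by little (log2 fold change 0.26 ± 0.16, SE; 95% interval -0.09 to 0.62; limma adjusted p = 0.30). The dimmer 1422537_a_at was at 30.5, 12.7 and 26.7 against 16.3 and 24.6, and 1453596_at at 17.7, 19.1 and 27.5 against 22.6 and 26.9. Both overlapped between the groups, with fold changes of -0.09 and 0.13 and limma adjusted p-values of 0.896 and 0.802 in the fit of all probe sets.

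Msx2, a homeobox gene of BMP-responsive ectoderm and mesenchyme, was at 60.5, 102 and 87.2 in Folr1+/+ and at 105 and 142 in Folr1-/-. The lower Folr1-/- array was only just above the highest Folr1+/+ array. The log2 fold change was 0.50 ± 0.22 (SE; 95% interval 0.02 to 0.98), which did not pass (limma adjusted p = 0.15). Leaving out Folr1+/+ replicate 1 gave 0.32, and leaving out Folr1-/- replicate 2 gave 0.31. Whether the Id genes and Msx2 changed less than the ligand or inhibitor genes was not tested.

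Over all 14 member probe sets, the groups did not overlap in 9 with higher and 1 with lower Folr1-/- signals, where 15.5% of all probe sets with 1 symbol were higher and 22.5% lower without overlap. In the fit of all probe sets, which adjusts over more and dimmer features, 2 of the 14 rose, those of Bmp4 (limma adjusted p = 0.012) and Bambi (0.0093), and 0 fell, where 2.54% of all probe sets rose. Bmp2 missed the threshold there (limma adjusted p = 0.052) but passed with a pseudocount of 1 (0.039), and Smad6 missed it (0.085). The Bambi call was lost without Folr1+/+ replicate 3 (limma adjusted p = 0.054), Folr1-/- replicate 1 (0.10) or Folr1-/- replicate 2 (0.090), and that of Bmp4 without Folr1-/- replicate 1 (0.16).

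**Figure D4:**
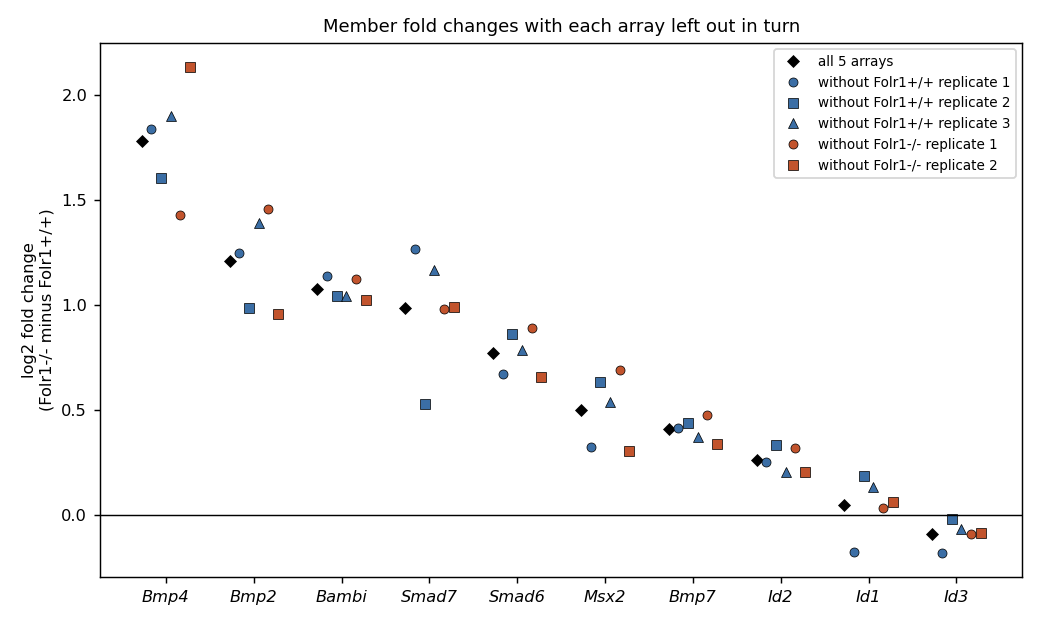
Log2 fold change (Folr1-/- minus Folr1+/+) of each member gene with all 5 arrays (black diamonds) and with each array left out in turn (blue for a Folr1+/+ array, red for a Folr1-/- array). Bmp4 ranged from 1.43 to 2.13, Bambi from 1.02 to 1.14 and Smad7 from 0.53 to 1.26, and Id1 was on both sides of 0.

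The rest of the pathway was read from 64 further genes, of which 53 were on the array and 30 passed the filter on dim signals. Of these 30, 5 rose, 2 fell and 23 did not pass, where 8.19% of all genes tested rose and 6.79% fell. The median log2 fold change was -0.04, near that of all genes. Among 3 other ligand genes tested, Bmp6 rose, from 33.8, 20.2 and 16.6 in Folr1+/+ to 45.2 and 59.6 in Folr1-/- (0.81 ± 0.24, SE, limma adjusted p = 0.040). These signals are near the pseudocount, and the call was lost without either Folr1-/- array (limma adjusted p = 0.13 without replicate 1 and 0.25 without replicate 2), without Folr1+/+ replicate 2 (0.069) or Folr1+/+ replicate 3 (0.14). It held at 8 of 15 alternatives in all, and with a pseudocount of 64 the fold change was 0.41.

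The receptor genes gave 0 calls among 5 tested, with a median of -0.22, and 4 of the 5 had a negative fold change. The 3 others on the array were too dim to test, among them the type II receptor gene Bmpr2, at 13.2, 9.21 and 5.09 in Folr1+/+ and 25.6 and 27.5 in Folr1-/-, higher without overlap. Of the other two, Acvrl1 was lower without overlap and Bmpr1b overlapped between the groups. The smallest unadjusted p-values were those of Eng, an endothelial co-receptor gene, at -0.46 ± 0.21 (SE; limma adjusted p = 0.17) and of the activin and BMP receptor gene Acvr2b at -0.30 ± 0.19 (SE; limma adjusted p = 0.30). The Smads that carry the signal also gave 0 calls among 3 tested, and all 3 fold changes were negative. Smad4, the shared partner, was at 1236, 1030.0 and 1197 in Folr1+/+ and 851 and 864 in Folr1-/- (-0.42 ± 0.14, SE; limma adjusted p = 0.073). The groups of Smad4 did not overlap. Smad5 had a fold change of -0.25 ± 0.20 (SE; limma adjusted p = 0.42).

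Secreted antagonists and modulators gave 0 calls among 4 tested, and 9 more were too dim to test, among them Nog and Chrd, which encode the BMP-binding proteins noggin and chordin. Fstl1, a secreted follistatin-like protein gene, was at 1000.4, 881 and 1028 against 1265 and 1419, a fold change of 0.46 ± 0.14 (SE) that just missed (limma adjusted p = 0.051). Bmp1, which encodes a protease that cleaves chordin, had 0.24 ± 0.23 (SE; limma adjusted p = 0.51). Intracellular modulators gave 0 calls among 4, with Skil, a Smad co-repressor gene, at 0.30 ± 0.19 (SE; limma adjusted p = 0.33) and the phosphatase gene Ctdsp2 at -0.16 ± 0.16 (SE; limma adjusted p = 0.56).

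Other genes known as BMP targets rose in 4 of 8 tested, with 0 lower and a median of 0.60. Of all genes tested, 8.19% rose. Tbx3, a T-box repressor gene, was at 214, 234 and 283 in Folr1+/+ and 624 and 552 in Folr1-/- (1.22 ± 0.17, SE, limma adjusted p = 0.00052). Its relative Tbx2 was at 44.2, 46.6 and 41.5 against 101 and 80.9 (0.83 ± 0.19, SE, limma adjusted p = 0.013). Both T-box genes were higher in both Folr1-/- arrays than in any Folr1+/+ array. Hand1, a helix-loop-helix gene of heart and extraembryonic mesoderm, and Msx1, the homeobox relative of Msx2, rose by 0.78 ± 0.19 (SE, limma adjusted p = 0.018) and 0.70 ± 0.20 (SE, limma adjusted p = 0.039). Without Folr1-/- replicate 1 the limma adjusted p-values of Tbx2, Hand1 and Msx1 were 0.17, 0.17 and 0.24, and without Folr1-/- replicate 2 those of Hand1 and Msx1 were 0.078 and 0.12. Tbx2 and Hand1 also did not pass without Folr1+/+ replicate 3 (limma adjusted p = 0.052 and 0.073), nor Msx1 without Folr1+/+ replicate 1 (0.083) or Folr1+/+ replicate 2 (0.096). When probe sets of 1 gene were averaged, the fold change of Tbx3 was 0.63 (limma adjusted p = 0.022) and that of Hand1 was 0.41 (0.093). Over all alternatives the call of Tbx3 held at 16 of 16, that of Tbx2 at 13 of 15, that of Hand1 at 9 of 15 and that of Msx1 at 8 of 16. Id4, the remaining Id gene, had 0.29 ± 0.19 (SE; limma adjusted p = 0.33).

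Of the 3 E-protein genes, whose products are the partners of Id proteins, 2 fell, where 6.79% of all genes tested fell. Tcf12 was at 835, 748 and 946 in Folr1+/+ and 477 and 568 in Folr1-/- (-0.67 ± 0.16, SE, limma adjusted p = 0.014), and Tcf4 was at 421, 297 and 469 against 175 and 278 (-0.77 ± 0.23, SE, limma adjusted p = 0.039). Tcf3 had -0.13 ± 0.19 (SE; limma adjusted p = 0.69). The calls of Tcf12 and Tcf4 were lost without Folr1-/- replicate 1, where the fold changes were -0.55 and -0.46 (limma adjusted p = 0.15 and 0.35), and without Folr1+/+ replicate 3, where they were -0.59 and -0.64 (0.073 and 0.15). That of Tcf4 was also lost without Folr1+/+ replicate 1 (-0.72, limma adjusted p = 0.091). With the mean of its probe sets the Tcf4 value was -0.38 (limma adjusted p = 0.18), and its call held at 8 of 16 alternatives, against 13 of 16 for Tcf12.

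**Figure D5:**
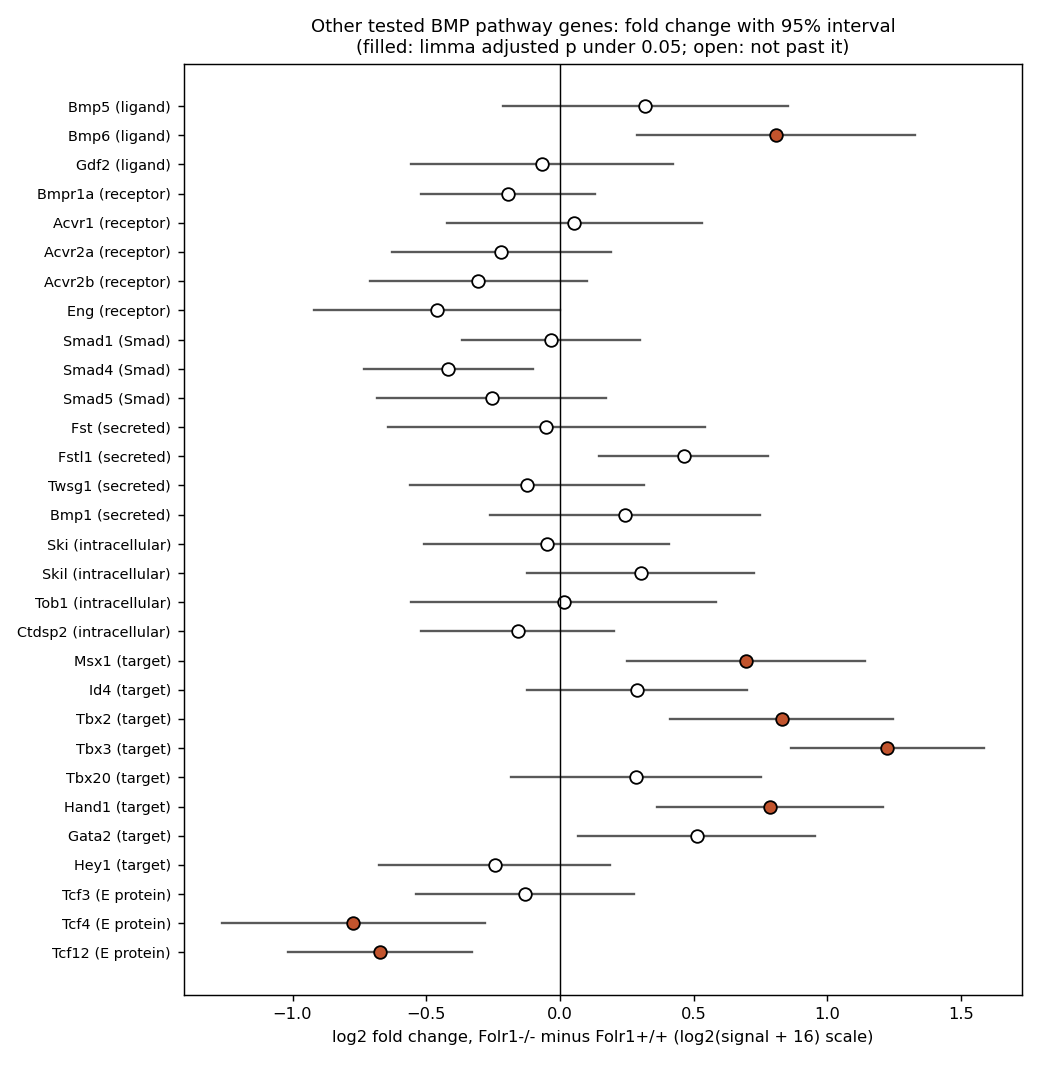
Log2 fold change (Folr1-/- minus Folr1+/+, log2(signal + 16) scale) with 95% interval of the 30 other BMP pathway genes tested, in the order of their roles. Filled points passed a limma adjusted p of 0.05, and they are Bmp6, the targets Msx1, Tbx2, Tbx3 and Hand1 on the right and the E-protein genes Tcf4 and Tcf12 on the left.

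Markers of several tissues moved between the same arrays. Each sum covers all markers of a list on the array, dim ones included, and Folr1-/- sums are given lower first. Among all genes tested, 8.19% were higher and 6.79% lower. All 10 measured markers of visceral endoderm and yolk sac rose, and their summed signal was 2318 to 3307 in Folr1+/+ and 16228 to 16502 in Folr1-/-, with none at 0 in either group. Primitive red cell markers fell in 5 of 5 tested, from sums of 5269 to 6198 to sums of 133 and 574. Of the trophoblast and decidua markers 2 of 2 tested rose (Plac1 and Prl8a2). Sums over that list were 133 to 143 against 334 and 440. Prl8a2 was at 13.6 to 23.2 in Folr1+/+ and at 143 and 34.6 in Folr1-/- replicates 1 and 2. Tpbpa and Ascl2 were too dim to test and overlapped between the groups. Of the markers of allantois and extraembryonic mesoderm 2 of 3 tested rose (Hand1 and Vcam1). Sums over that list were 155 to 200.5 against 355 and 381. Hand1 is the same value already counted among the BMP targets. The list's other markers, Foxf1 and Tbx4, were too dim to test, at 1.12 to 28.2 in Folr1+/+ and 2.07 to 18.8 in Folr1-/-, and Pitx1 did not pass. Neural progenitor, neural crest, somite and cardiomyocyte markers fell in 5 of 6, 3 of 4, 4 of 4 and 5 of 7 tested, with 0 higher. The neural progenitor sums were 991 to 1054 against 261 and 280, the neural crest sums 838 to 976 against 288 and 374, the somite sums 522 to 668 against 157 and 224, and the cardiomyocyte sums 5982 to 6703 against 3699 and 4103. Surface ectoderm had 1 higher (Perp) and 1 lower (Trp63) of 2 tested, at sums of 133 to 191 against 224 and 256. Perp was at 44.5 to 77.7 in Folr1+/+ and at 196 and 170 in Folr1-/- replicates 1 and 2. Among its dim markers, Krt14 was lower without overlap, and Krt5 and Krt15 overlapped between the groups. Limb bud and pharyngeal arch mesenchyme had 1 lower (Prrx1) of 2, at sums of 397 to 437 against 248 and 351. Its dim markers Tbx5 and Hand2 were higher without overlap, and Alx4 was lower without overlap. The part of these tissues in the higher signals of Bmp2, Bmp4, Bambi and Smad6 was not tested.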

How the data were processed

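RNA of 5 whole-embryo samples was amplified in 2 rounds and hybridised to 1 array each, per the labels' protocols. The authors deposited MAS5 signal intensities per probe set, per the submitters' processing notes, whose MAS5 version is not stated there, and their scaling was kept. Detection calls were not used. Of 22690 probe sets, 64 were controls, 20380 had 1 symbol, 691 several and 1555 none listed. The brightest probe set by mean log2(signal + 16) stood for each gene, and genes under the 40th percentile of that mean were left out (4957), leaving 7436. Groups were compared with limma 3.58.1 in R 4.3.3 (lmFit, eBayes with an intensity trend, 3 residual degrees of freedom) with Benjamini-Hochberg adjustment over all genes and a threshold of 0.05. A further fit took all probe sets with no filter. The code was tested on simulated data. The number of arrays limits the precision. Alternatives covered pseudocounts, filters, scaling, probe sets, trend, array weights, a replicate block, an Actb ratio covariate and leaving out each array.

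Members and lists were chosen with earlier results of these data known. The text names all members, per role group at most 4 pathway genes past the threshold by size or else the 2 with the smallest unadjusted p, and genes that check the labels. Id4, Tcf3, Nog, Chrd, Bmpr2, Acvrl1, Bmpr1b and the markers named singly were added after their values were seen.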

Additional observations from a re-analysis of the deposited data

How the results depend on the processing

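The calls of Bmp4 and Bambi held at all 16 alternatives and that of Bmp2 at 14 of 15, while that of Smad6 held at 10 of 15 and Smad7 passed at 3 of 15. Bmp7, Id1, Id2, Id3 and Msx2 passed at none. With an array left out, 2 to 4 members rose, and 225 to 566 genes rose and 144 to 441 fell over all genes, where 311 fell with no filter. With the filter at the 60th percentile 2 members rose, since Bmp2 and Smad6 were then not tested. Of the other pathway genes, 2 rose and 1 fell with no filter, 3 rose with the 60th percentile, and 1 fell with median centring, probe set means or no intensity trend. With an array left out 1 to 4 rose and 0 to 3 fell. Same-numbered arrays did not deviate together (correlations 0.019 and -0.056). With the replicate block, to which Folr1+/+ replicate 3 adds nothing, 5 members rose, Smad7 among them (1.17, limma adjusted p = 0.0059). In that fit 3 other pathway genes rose and 0 fell. It left fewer residual degrees of freedom than the main fit, so its p-values lean more on the variance pooled over genes. The values of Id1 and its probe set ranged from -0.18 to 0.19 with an array left out, and those of Id2's 1422537_a_at from -0.30 to 0.078. The cause was not tested. With pseudocounts of 1 and 64, Bmp4 had 2.05 and 1.28. Signals near 16, as of the dim probe sets of Bmp7 and Id2, have their changes understated on this scale.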
